A study of Mus musculus with 2 samples.

Results

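The genes described here handle fatty acids, triglycerides and sebum lipids. They are 49 gene symbols chosen by name for roles in fatty acid synthesis, desaturation and elongation, wax and triglyceride synthesis, lipid droplets and fat cells. All 49 were listed in the deposited table of 23233 genes. The table compares ZIP10-positive with ZIP10-negative cells, both sorted from the ventral skin of wild-type C57BL/6 mice that were 7 days old. ZIP10 is a zinc importer encoded by Slc39a10, and the sort used a polyclonal antibody against it and the viability dye 7-AAD. Each population gave 1 library of polyadenylated RNA, so there is no replicate and no test, and every difference describes these libraries. The titles name hair follicles as the source of both populations, whereas the protocol describes a digest of whole ventral skin, and no number of animals is given.

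Fatty acids are built from citrate-derived acetyl-CoA, lengthened and desaturated in the endoplasmic reticulum, activated with coenzyme A and joined to glycerol as triglycerides or to fatty alcohols as waxes. In skin, sebocytes fill with such lipids and burst to release sebum, keratinocytes of the upper epidermis make barrier lipids, and fat cells of the dermis store triglycerides. Macrophages and capillary endothelium also take up fatty acids, so several of these genes are not particular to 1 cell type.

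Values are RPKM as deposited, a read count divided by the length of the transcript and by the size of the library. Slc39a10 itself stood at 49.4 RPKM in ZIP10-positive cells, against 11.1 RPKM in ZIP10-negative cells, which checks the labels and is no finding. Among genes reaching 1 RPKM in each library the median ratio was 1.97, or 0.98 as a log2 ratio. Log2 ratios of ZIP10-positive over ZIP10-negative cells are therefore given relative to that median, called the median gene, with a pseudocount of 1 RPKM, unless stated otherwise. Erythroid markers, globins included, summed to 16377 RPKM in ZIP10-positive cells and 283754 RPKM in ZIP10-negative cells, all 7 lower in ZIP10-positive cells. The part of this difference in the results was not tested. An estimated 2.78e+06 reads lay behind the ZIP10-positive and 2.71e+06 behind the ZIP10-negative values. On a 2000-base transcript 1 read was worth 0.200 RPKM for ZIP10-positive against 0.205 RPKM for ZIP10-negative cells. Intervals are 95% exact binomial intervals of the ratio and cover counting error only.

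All 4 genes of fatty acid uptake and binding lay above the median gene in ZIP10-positive cells, with Fabp5, Fabp4 and Cd36 past 2-fold. All 4 measured enzymes of fatty acid synthesis lay below it, with Fasn, Acaca and Me1 past 2-fold, although Acly was at 0.018, just above 0, as deposited. Droplet and triglyceride genes lay on both sides, Dgat1, Plin2 and Lipe at least 2-fold above and Pnpla2 and Lpin1 at least 2-fold below. Of the 49 members, 41 reached 1 RPKM in a library. Of these, 9 were at least 2-fold higher than the median gene (14.7% of all 12249 genes compared were). The 9 were Fabp4, Fabp5, Cd36, Pparg, Dgat1, Plin2, Lipe, Elovl3 and Awat2. Another 7 were at least 2-fold lower (11.4% of all genes compared were), namely Fasn, Acaca, Me1, Acsl1, Lpin1, Pnpla2 and Awat1. As shares of the 41 these were 21.95% and 17.1%, and with 1 library per group no test sets them against the background. The median member had a log2 ratio of 0.25, against 0.094 for all genes compared. It became -0.037 with the 50 most abundant genes left out of the scaling and -0.13 with globin genes and Rn45s left out. Those scalings moved the zero point of all genes, from 0.98 to 1.29 and 1.39, so the lower values are not particular to the members. As deposited, 23 members were at least 2-fold higher (44.1% of all genes compared were) and 1, Awat1, at least 2-fold lower (3.55%). All 9 higher members stayed above 0 and all 7 lower members below 0 under every scaling tried, but not all stayed past 2-fold. For Pparg, Awat2 and Awat1, each listed at 0 in 1 library, rescaling could not change the sign.

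With the 50 most abundant genes left out of the scaling, 7 members were past 2-fold on the higher side (10% of all genes compared) and 10 on the lower (16.8%), with Cd36 at 0.88 and Awat2 at 0.99 no longer past it. With globin genes and Rn45s left out the counts were 5 (8.99%) and 11 (19.2%). Fabp4 at 0.95, Cd36 at 0.81, Plin2 at 0.99 and Awat2 at 0.97 then lay inside the line, and Acly, Acsl4, Far1 and Plin3 joined the lower side. Pparg, Dgat1, Elovl3, Lipe and Fabp5 were past 2-fold under both of these scalings, but Pparg, Elovl3 and Lipe reached 1 RPKM only in ZIP10-positive cells. A pseudocount of 5 gave 5 higher (5.61%) and 2 lower (3.01%). Among the members at 1 RPKM or more in both libraries 5 were higher (9.98%) and 5 lower (9.99%), and at a 1.5-fold line 13 were higher (28.6%) and 12 lower (22.2%). The shares over all genes moved with these settings as well. Of the 41, 6 reached 1 RPKM in 1 library only and so had to differ, 4 in ZIP10-positive and 2 in ZIP10-negative cells. The 4 were Pparg, Elovl3, Lipe and Awat2, and the 2 were Lpin1 and Awat1. All 6 were among the calls past 2-fold, and their calls were lost where 1 RPKM was required in both libraries.

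**Figure D1:**
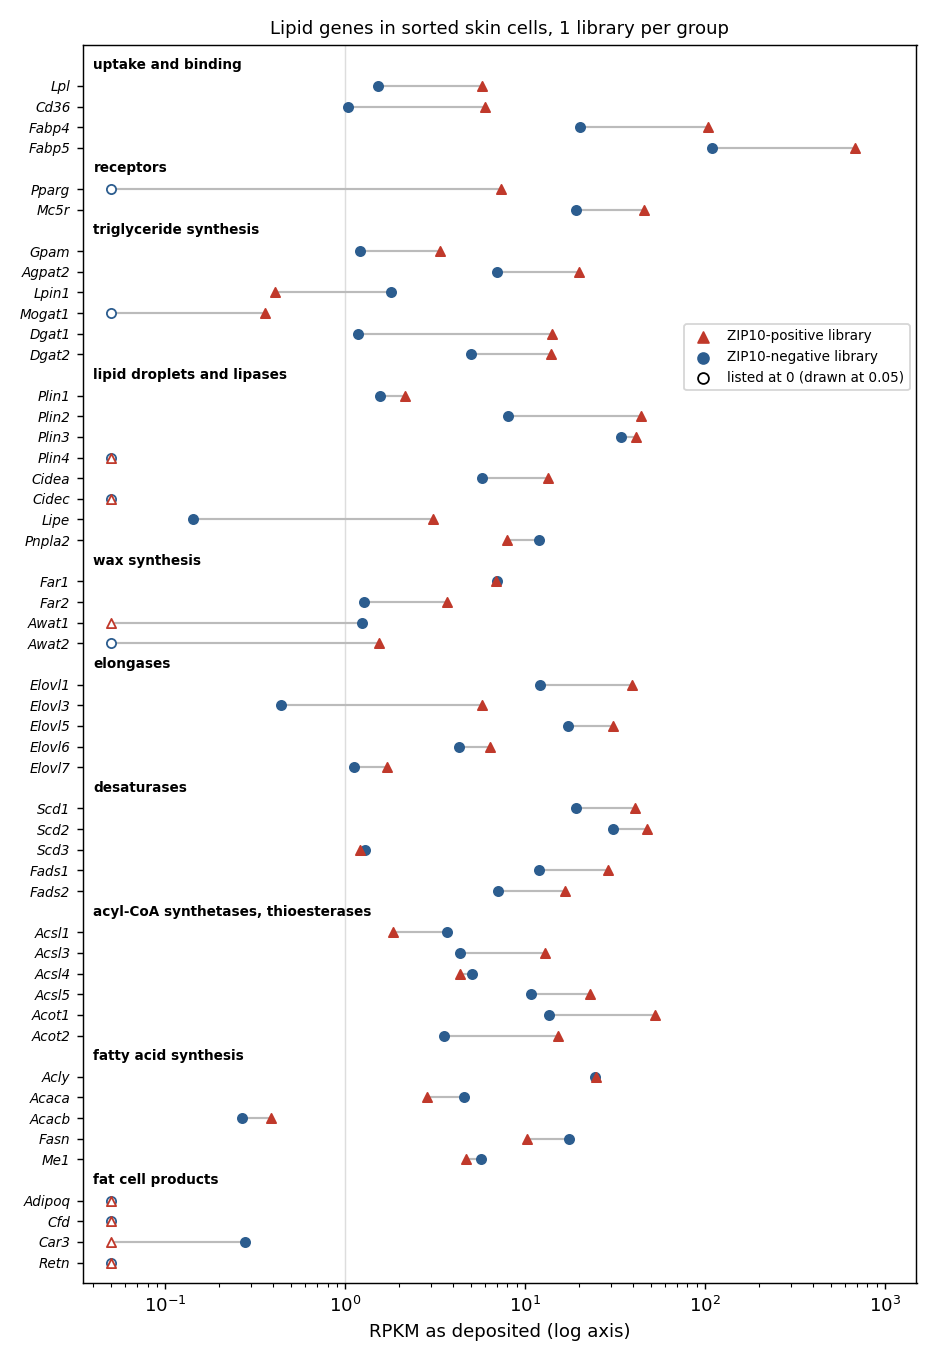
RPKM as deposited of the 49 members, grouped by role, on a log axis, with 1 point per library. Triangles are the ZIP10-positive and circles the ZIP10-negative library, and open symbols mark genes listed at 0. Fabp5 is highest in both, at 686 RPKM in ZIP10-positive cells, against 109.7 RPKM in ZIP10-negative cells, and the fat cell products lie at or near 0.

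Short transcripts lay higher than long ones across the whole table, and this trend bears on the members. Among 10751 compared genes with an annotated length, the median log2 ratio was 0.76 in the shortest of 10 length bins (median 936 bases) and -0.36 in the longest (median 7665 bases). The 9 higher members had a median transcript length of 1888 bases and the 7 lower members one of 3897 bases. Each log2 ratio was therefore also set against the median of genes in the same length bin, an added step chosen after the data were seen. On that scale 6 of 41 members were at least 2-fold higher (9.52% of genes with a length) and 6 at least 2-fold lower (11.9%). Fabp4, Fabp5 and Awat2 dropped out of the higher group, at 0.60, 0.90 and 0.81, and Acaca out of the lower group, at -0.93. In the shortest bin, which holds Fabp4 and Fabp5, 39.1% of genes were at least 2-fold higher than the median gene.

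**Figure D2:**
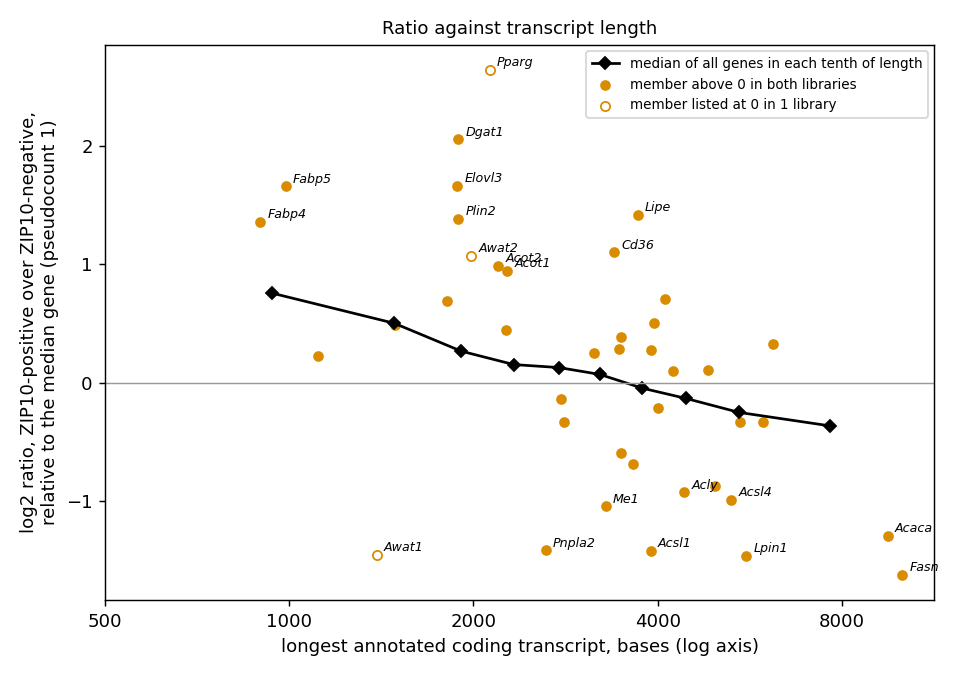
Log2 ratio of ZIP10-positive over ZIP10-negative cells relative to the median gene against transcript length on a log axis. Diamonds join the medians of all genes in 10 length bins, which run from 0.76 to -0.36, and orange points are the 41 members at 1 RPKM or more. Dgat1, at 2.05, and Pnpla2, at -1.41, lie far from the line on either side, whereas Fabp4, at 1.36, lies nearer to it.

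The printed sequences are the 200 bases before the annotated start of 2 genes from each side, chosen so that a storage and an uptake gene that were higher stand beside a synthase and a lipase that were lower. They come from RefSeq on GRCm38.p6, and capitals mark 2 of the motifs searched, CCAAT and GGGCGG on either strand. Plin2 lies at chr4:86670060-86670259 (minus strand), Cd36 at chr5:17835897-17836096 (minus strand), Fasn at chr11:120824548-120824747 (minus strand) and Pnpla2 at chr7:141454988-141455187 (plus strand).
Plin2: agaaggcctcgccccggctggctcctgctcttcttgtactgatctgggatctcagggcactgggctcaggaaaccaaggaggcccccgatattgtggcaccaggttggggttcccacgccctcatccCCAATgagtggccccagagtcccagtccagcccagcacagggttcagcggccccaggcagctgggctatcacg
Cd36: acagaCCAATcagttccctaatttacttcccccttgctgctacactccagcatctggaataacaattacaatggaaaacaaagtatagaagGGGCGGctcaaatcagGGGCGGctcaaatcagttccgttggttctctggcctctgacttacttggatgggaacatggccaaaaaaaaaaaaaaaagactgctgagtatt
Fasn: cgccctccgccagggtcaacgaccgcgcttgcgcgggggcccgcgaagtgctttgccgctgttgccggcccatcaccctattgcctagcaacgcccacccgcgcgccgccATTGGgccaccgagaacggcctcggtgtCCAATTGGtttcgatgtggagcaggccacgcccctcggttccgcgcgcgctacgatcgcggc
Pnpla2: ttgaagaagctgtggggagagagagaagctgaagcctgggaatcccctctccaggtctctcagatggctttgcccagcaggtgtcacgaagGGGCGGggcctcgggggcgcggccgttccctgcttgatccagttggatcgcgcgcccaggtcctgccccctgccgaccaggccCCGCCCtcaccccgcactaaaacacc

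Plin2 held 1 CCAAT starting 73 bases before the start, and Cd36 held 1 CCAAT at 195 and GGGCGG at 109 and 93 bases before it. Fasn held CCAAT at 90, 62 and 59 bases before the start, of which the last pair overlap on opposite strands, and Pnpla2 held GGGCGG at 109 and 26 bases. Promoter windows of 250 bases were found for 37 members, and CCAAT, the box bound by the factor NF-Y, occurred in 19 of them (51.4%), against 37.5% of 27025 genes. GGGCGG, the GC box bound by Sp1, also occurred in 19 (51.4%, against 35.4%). The E-box CACGTG occurred in 2 members, Elovl5 and Lipe (5.41%, against 6.86%), and TCACNCCAC, a sterol regulatory element, in 1, Acsl1 (2.70%, against 1.22%). The PPAR response element, a pair of direct repeats with 1 spacer base, occurred in 0 of the 37 members and in 0.0407% of all genes. All 5 motifs were read on both strands, and the background includes non-coding genes.

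Fabp5, a carrier of fatty acids in keratinocytes and sebocytes, stood at 686 RPKM in ZIP10-positive cells, against 109.7 RPKM in ZIP10-negative cells. Relative to the median gene its ratio was 3.17 (2.76 to 3.66). It made up 48.8% of the summed RPKM of the members in ZIP10-positive and 25.0% in ZIP10-negative cells. Without it the sums were 719 and 329 RPKM, a ratio of 2.19 that is close to the median gene's 1.97. Of the 50-base words of its transcript 21.1% also occur in other genes, mostly in the predicted gene Gm6166, so its value is uncertain to that extent. Fabp4, the related carrier of fat cells, macrophages and capillary endothelium, stood at 104 RPKM in ZIP10-positive cells, against 20.2 RPKM in ZIP10-negative cells. Its ratio was 2.62 (1.68 to 4.24), from 127 reads against 24.

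Cd36, a scavenger receptor that imports long-chain fatty acids, stood at 6.00 RPKM in ZIP10-positive cells, against 1.04 RPKM in ZIP10-negative cells. Its ratio relative to the median gene was 2.93 (1.32 to 7.83). Lpl, the lipase that frees fatty acids from circulating triglycerides, stood at 5.80 RPKM in ZIP10-positive cells, against 1.53 RPKM in ZIP10-negative cells, a ratio of 1.93 (1.11 to 3.62). The intervals of these 4 genes all lay above the median gene, but the 2-fold calls of Fabp5, Fabp4 and Cd36 depended on the scaling. Against genes of similar length Cd36 kept its call, at 1.03, and Fabp5 and Fabp4 did not. With globin genes and Rn45s left out Fabp5 kept its call, at 1.24, and Cd36 and Fabp4 did not. Macrophages express Cd36, Fabp4, Lpl, Plin2 and Pparg, which lay above the median gene, and Acsl1, which lay below it at -1.42. A list of 12 macrophage markers summed to 1162 RPKM in ZIP10-positive cells, against 50.4 RPKM in ZIP10-negative cells. Most of the higher sum was Lyz2, at 772 RPKM, which was listed at 0 in ZIP10-negative cells, and a listed 0 can be a failed estimate. Other markers were above 0 in both libraries. Csf1r, Emr1 and Tyrobp stood at 19.9, 13.1 and 280 RPKM in ZIP10-positive cells. In ZIP10-negative cells they stood at 0.301, 0.363 and 37.6 RPKM. Cd68 and Cd14 lay inside the 2-fold line, at log2 ratios of 0.50 and 0.54. The part of macrophages in the results for Cd36, Fabp4, Lpl, Plin2, Pparg and Acsl1 was not tested. In such bulk libraries fewer cells of a type and less RNA per cell cannot be told apart.

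The receptor genes were both higher as deposited. Pparg, the nuclear receptor that drives fat cell and sebocyte differentiation, stood at 7.34 RPKM in ZIP10-positive cells and, for ZIP10-negative cells, was listed at 0. A listed 0 can be a failed estimate, since the broadly expressed genes Psmg4 and Ndufaf3 were also at 0 there, against 69.5 and 24.97 RPKM in ZIP10-positive cells. On the length of Pparg, 3 reads would have given 0.681 RPKM in the ZIP10-negative library. Mc5r, the melanocortin receptor of sebaceous glands, stood at 46.1 RPKM in ZIP10-positive cells, against 19.2 RPKM in ZIP10-negative cells, a ratio of 1.22 relative to the median gene (1.004 to 1.48). Its log2 ratio was -0.028 once the 50 most abundant genes were left out of the scaling and -0.13 once globin genes and Rn45s were.

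In triglyceride synthesis, 1 of 5 measured genes was past 2-fold on the higher side and 1 on the lower (14.7% and 11.4% of all genes compared). Dgat1, which joins the third fatty acid to diacylglycerol, stood at 14.1 RPKM in ZIP10-positive cells, against 1.19 RPKM in ZIP10-negative cells. It rested on 61 reads against 5, and its ratio relative to the median gene was 6.04 (2.45 to 19.3). Dgat2, an unrelated enzyme of the same reaction, stood at 14.03 RPKM in ZIP10-positive cells, against 5.04 RPKM in ZIP10-negative cells, a ratio of 1.41 (0.909 to 2.26). These acyltransferases were thus at like levels in ZIP10-positive cells, and Dgat1 was the lower of them in ZIP10-negative cells.

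Gpam, the mitochondrial enzyme of the first acylation, stood at 3.37 RPKM in ZIP10-positive cells, against 1.22 RPKM in ZIP10-negative cells. Agpat2, the enzyme of the second acylation, stood at 19.9 RPKM in ZIP10-positive cells, against 6.98 RPKM in ZIP10-negative cells. The intervals of both ratios held the median gene, and Agpat2 turned to -0.015 on the log2 scale against genes of similar length. Lpin1, a phosphatidate phosphatase, went the other way, at 0.408 RPKM in ZIP10-positive cells, against 1.81 RPKM in ZIP10-negative cells. Relative to the median gene its ratio was 0.114 (0.0258 to 0.314), from an estimated 4 reads against 19. Mogat1, a monoacylglycerol acyltransferase, stood at 0.358 RPKM in ZIP10-positive cells, near the value of 1 read, and, for ZIP10-negative cells, was listed at 0.

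Of 6 measured genes of droplet coats and lipases, 2 were past 2-fold on the higher side and 1 on the lower (14.7% and 11.4% of all genes compared). Plin2, the droplet coat protein found in most cell types, stood at 43.96 RPKM in ZIP10-positive cells, against 8.09 RPKM in ZIP10-negative cells. Its ratio relative to the median gene was 2.76 (1.93 to 4.02), with a log2 ratio of 1.12 against genes of similar length and of 0.99, inside the 2-fold line, with globin genes and Rn45s left out of the scaling. Plin3, a coat protein of nascent droplets, stood at 41.6 RPKM in ZIP10-positive cells, against 34.3 RPKM in ZIP10-negative cells, below the median gene at 0.614 (0.530 to 0.715) but above 0 as deposited, at 0.27. In ZIP10-positive cells Plin2 and Plin3 were thus at like levels, and in ZIP10-negative cells Plin3 was the higher.

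Cidea, which promotes droplet growth and is expressed in sebaceous glands and brown fat, stood at 13.5 RPKM in ZIP10-positive cells, against 5.75 RPKM in ZIP10-negative cells. Relative to the median gene its ratio was 1.19 (0.548 to 2.78), and its log2 ratio turned below 0 under 3 scalings, to -0.058 with the 50 most abundant genes left out of the scaling, -0.15 with globin genes and Rn45s left out and -0.53 against genes of similar length. Plin1, the coat protein of mature fat cells, was low, at 2.14 RPKM in ZIP10-positive cells, against 1.56 RPKM in ZIP10-negative cells. Plin4 and Cidec, other droplet proteins of mature fat cells, were listed at 0 in both libraries.

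The 2 lipases of stored triglyceride had opposite directions. Lipe, hormone-sensitive lipase, stood at 3.09 RPKM in ZIP10-positive cells, against 0.143 RPKM in ZIP10-negative cells, from an estimated 26 reads against 1. Its ratio relative to the median gene was 10.98, with an interval of 2.11 to 528 that reflects the single read. Pnpla2, adipose triglyceride lipase, stood at 7.98 RPKM in ZIP10-positive cells, against 11.96 RPKM in ZIP10-negative cells, a ratio of 0.338 (0.229 to 0.509). Both stayed past 2-fold against genes of similar length, at 1.46 and -1.54.

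**Figure D3:**
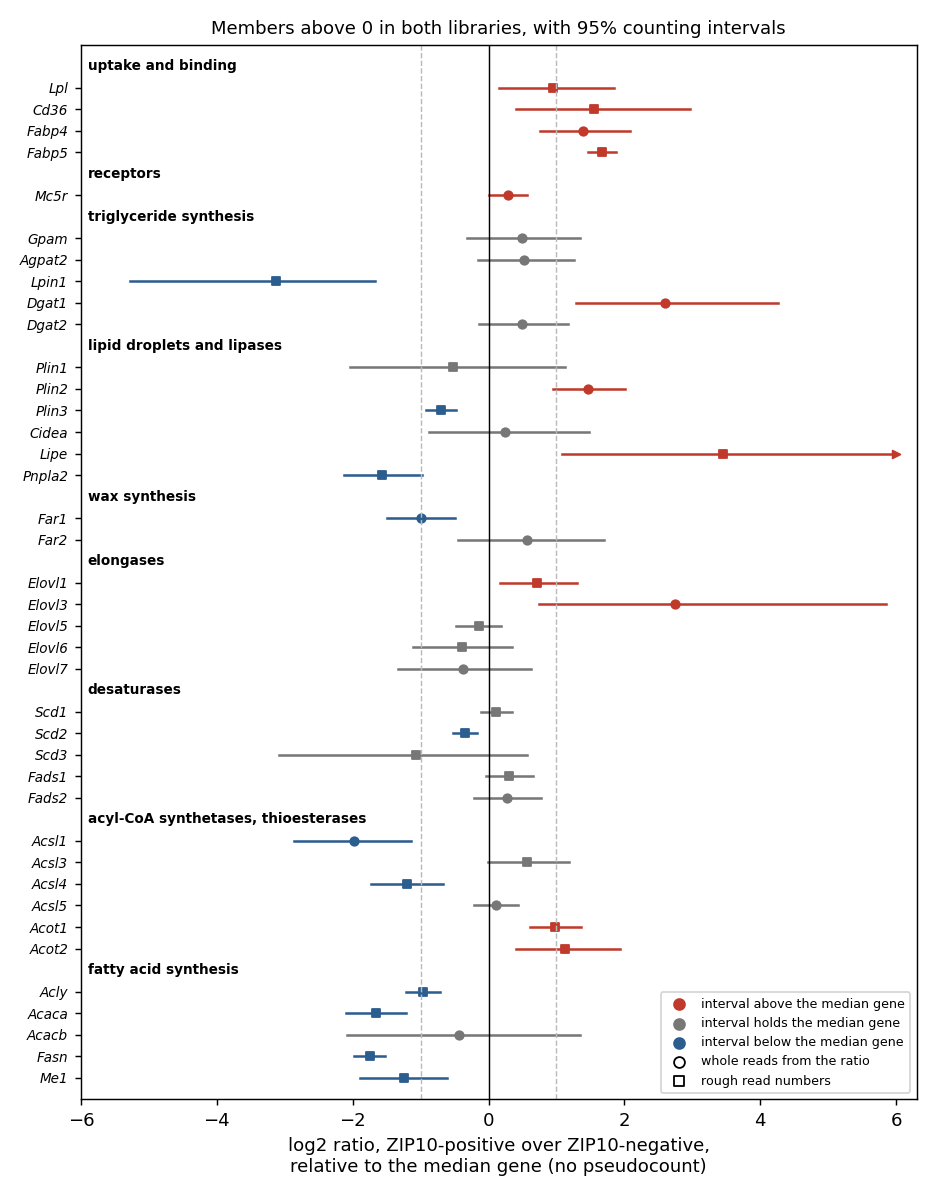
Ratios of ZIP10-positive over ZIP10-negative cells relative to the median gene, on a log2 axis with no pseudocount, for the 39 members above 0 in both libraries. Bars are 95% counting intervals and do not cover variation between animals. Intervals of 12 members lie above the median gene, 11 below and 16 hold it, and among the enzymes of fatty acid synthesis the interval of Acacb alone holds it.

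Fatty acid synthesis was the class with the lowest median, at a log2 ratio of -1.17, or -1.02 against genes of similar length. Fasn, the synthase that builds palmitate, stood at 10.3 RPKM in ZIP10-positive cells, against 17.6 RPKM in ZIP10-negative cells. Relative to the median gene its ratio was 0.298 (0.255 to 0.349), and it was lower as deposited too, at a log2 ratio of -0.71. Acaca, the carboxylase that makes malonyl-CoA, stood at 2.85 RPKM in ZIP10-positive cells, against 4.57 RPKM in ZIP10-negative cells, a ratio of 0.316 (0.233 to 0.432). Me1, malic enzyme, which supplies NADPH, stood at 4.70 RPKM in ZIP10-positive cells, against 5.67 RPKM in ZIP10-negative cells, a ratio of 0.421 (0.269 to 0.656). Acaca and Me1 share 52.6% and 32.8% of their 50-base words with other genes, mostly predicted genes, so their values are less certain than that of Fasn, which shares none.

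Acly, which cleaves citrate to acetyl-CoA, stood at 24.7 RPKM in ZIP10-positive cells, against 24.4 RPKM in ZIP10-negative cells. That equal level lay below the median gene, at 0.514 (0.433 to 0.609), and its log2 ratio was 0.018 as deposited. Acacb, the mitochondrial carboxylase that curbs fatty acid oxidation, was under 1 RPKM in both libraries, at 0.390 RPKM in ZIP10-positive cells, against 0.267 RPKM in ZIP10-negative cells. Summed over the class, RPKM as deposited came to 43.0 in ZIP10-positive and 52.5 in ZIP10-negative cells. The uptake and binding class summed to 802 in ZIP10-positive and 133 in ZIP10-negative cells, beside the median gene's ratio of 1.97. Most of the latter sums was Fabp5, at 686 and 109.7 RPKM, and Fabp4, at 104 and 20.2 RPKM. Neither gene kept its 2-fold call against genes of similar length.

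Desaturases, which place double bonds in fatty acids, lay close to the median gene. None of 5 was past 2-fold (14.7% of all genes compared were higher and 11.4% lower). The class median of 0.11 became -0.29 with globin genes and Rn45s left out of the scaling. Scd1, the desaturase of sebocytes, stood at 40.8 RPKM in ZIP10-positive cells, against 19.1 RPKM in ZIP10-negative cells, a ratio of 1.08 relative to the median gene (0.928 to 1.27). Scd2, its widely expressed relative, stood at 47.9 RPKM in ZIP10-positive cells, against 30.7 RPKM in ZIP10-negative cells, a ratio of 0.790 (0.699 to 0.891). Scd3, another sebocyte form, was low, at 1.22 RPKM in ZIP10-positive cells, against 1.29 RPKM in ZIP10-negative cells. The 3 Scd genes share 4.01% to 6.69% of their 50-base words with other genes, mainly each other.

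Fads1 and Fads2, the front-end desaturases of polyunsaturated fatty acids, kept nearly the same ratio. Fads1 stood at 29.1 RPKM in ZIP10-positive cells, against 11.99 RPKM in ZIP10-negative cells, a ratio of 1.23 relative to the median gene (0.979 to 1.57). Fads2 stood at 16.8 RPKM in ZIP10-positive cells, against 7.06 RPKM in ZIP10-negative cells, a ratio of 1.21 (0.862 to 1.71). Scd1, Fads1 and Fads2 turned below 0, to -0.19, -0.010 and -0.037, once the 50 most abundant genes were left out of the scaling.

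Of the 5 elongases, which add 2-carbon units to fatty acids, Elovl3 alone was past 2-fold, on the higher side (14.7% of all genes compared were). Elovl3, the elongase of sebaceous glands and brown fat, stood at 5.79 RPKM in ZIP10-positive cells, against 0.440 RPKM in ZIP10-negative cells. It rested on 27 reads against 2, so its ratio of 6.68 relative to the median gene had an interval of 1.68 to 57.99. Elovl1, which makes the very long chains of barrier ceramides, stood at 39.6 RPKM in ZIP10-positive cells, against 12.2 RPKM in ZIP10-negative cells, a ratio of 1.65 (1.13 to 2.47).

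Elovl5, Elovl6 and Elovl7 were above 0 as deposited and below it relative to the median gene. Elovl5, which lengthens polyunsaturated chains, stood at 30.8 RPKM in ZIP10-positive cells, against 17.3 RPKM in ZIP10-negative cells. Elovl6, which lengthens palmitate to stearate, stood at 6.40 RPKM in ZIP10-positive cells, against 4.28 RPKM in ZIP10-negative cells. Elovl7 stood at 1.72 RPKM in ZIP10-positive cells, against 1.13 RPKM in ZIP10-negative cells. All 3 intervals held the median gene.

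Of the acyl-CoA synthetases, which activate fatty acids, Acsl1 and Acsl4 lay below the median gene and Acsl3 and Acsl5 above it. Acsl1, the form of fat cells and macrophages, stood at 1.85 RPKM in ZIP10-positive cells, against 3.69 RPKM in ZIP10-negative cells, from 19 reads against 37, a ratio of 0.254 relative to the median gene (0.138 to 0.453). Acsl4, which prefers arachidonate, stood at 4.35 RPKM in ZIP10-positive cells, against 5.08 RPKM in ZIP10-negative cells, a ratio of 0.435 (0.302 to 0.628). Both were also lower as deposited, at log2 ratios of -0.72 and -0.18.

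Acsl3, the form found on lipid droplets, stood at 12.8 RPKM in ZIP10-positive cells, against 4.38 RPKM in ZIP10-negative cells, a ratio of 1.49 (0.992 to 2.27). Acsl5 stood at 23.0 RPKM in ZIP10-positive cells, against 10.9 RPKM in ZIP10-negative cells, a ratio of 1.08 (0.860 to 1.35) whose log2 value was -0.20 once the 50 most abundant genes were left out of the scaling. The thioesterases that release the fatty acid again lay above the median gene. Acot1, the cytosolic form, stood at 52.7 RPKM in ZIP10-positive cells, against 13.5 RPKM in ZIP10-negative cells, a ratio of 1.97 (1.53 to 2.57). Acot2, the mitochondrial form, stood at 15.2 RPKM in ZIP10-positive cells, against 3.54 RPKM in ZIP10-negative cells, a ratio of 2.18 (1.32 to 3.81). With the pseudocount their log2 ratios were 0.95 and 0.99, just inside the 2-fold line. Acot1 and Acot2 share 33.2% and 27.7% of their 50-base words with other genes, first of all each other, so the division between them is uncertain.

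Wax synthesis genes were low. Far1, a fatty acyl-CoA reductase that makes fatty alcohols, stood at 6.93 RPKM in ZIP10-positive cells, against 7.01 RPKM in ZIP10-negative cells, from 71 reads against 70. That equal level was a ratio of 0.502 relative to the median gene (0.356 to 0.709). Far2, a reductase prominent in sebaceous glands, stood at 3.71 RPKM in ZIP10-positive cells, against 1.27 RPKM in ZIP10-negative cells, a ratio of 1.48 (0.732 to 3.26). The wax synthases Awat1 and Awat2 were each listed in 1 library. Awat1 was listed at 0 in ZIP10-positive and stood at 1.24 RPKM in ZIP10-negative cells, about 4 reads, and Awat2 stood at 1.55 RPKM in ZIP10-positive cells, about 7 reads, and, for ZIP10-negative cells, was listed at 0. Both synthases were near the depth limit, so their calls of 2-fold rest on few reads.

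Products of mature fat cells were under 1 RPKM in both libraries. Adipoq, which encodes adiponectin, Cfd, which encodes adipsin, and Retn, which encodes resistin, were listed at 0 in both. Car3, a carbonic anhydrase abundant in fat, was listed at 0 in ZIP10-positive and stood at 0.278 RPKM in ZIP10-negative cells, about 1 read. On the lengths of Adipoq, Cfd and Retn, 3 reads would have given 0.989, 1.55 and 1.34 RPKM in the ZIP10-positive library. Of 13 fat cell markers outside the members, 9 were under 1 RPKM in both libraries, with Lep, Pck1, Ucp1, Thrsp and Mrap listed at 0 in both. Among the other 4, G0s2 and Lgals12 were at least 2-fold higher and Adig 2-fold lower (14.7% and 11.4% of all genes compared were). Cebpa, which many cell types express, lay between, at 296 RPKM for ZIP10-positive against 217 RPKM for ZIP10-negative cells. The 13 summed to 316 RPKM for ZIP10-positive against 222 RPKM for ZIP10-negative cells, most of it Cebpa. Against genes of similar length 0 of these markers were past 2-fold on the higher side and 1, Adig, on the lower (9.52% and 11.9% of genes with a length). Lgals12 stood at 2.39 RPKM for ZIP10-positive against 0.171 RPKM for ZIP10-negative cells, and Adig was listed at 0 for ZIP10-positive against 1.72 RPKM for ZIP10-negative cells. Fat cells express Fabp4, Pparg and Lipe, which were higher, and also Acsl1, Pnpla2 and Plin1. The latter lay below the median gene, at -1.42, -1.41 and -0.33. The part of fat cells in the results for all of these genes was not tested.

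Of 61 other genes of these pathways, 53 reached 1 RPKM. Of the 53, 9 (17.0%, against 14.7% of all genes compared) were at least 2-fold above the median gene. Another 4 (7.55%, against 11.4%) were at least 2-fold below. The log2 ratio at the middle of the list was 0.15, and 0.0015 against genes of similar length. Among those at 10 RPKM or more, G0s2, an inhibitor of the lipase encoded by Pnpla2, stood at 14.6 RPKM in ZIP10-positive cells, against 1.73 RPKM in ZIP10-negative cells. Tecr, the last enzyme of the elongation cycle, stood at 324 RPKM in ZIP10-positive cells, against 69.1 RPKM in ZIP10-negative cells. Insig2, which holds back SREBP processing, stood at 27.1 RPKM in ZIP10-positive cells, against 4.46 RPKM in ZIP10-negative cells. These 3 had log2 ratios of 1.74, 1.24 and 1.48, and against genes of similar length Insig2 alone of them stayed past 2-fold, at 1.35.

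Slc27a1 and Slc27a3, of the fatty acid transport family, stood at 22.7 and 15.5 RPKM in ZIP10-positive cells, against 4.98 and 3.22 RPKM in ZIP10-negative cells. Hadhb, of mitochondrial beta-oxidation, stood at 70.4 RPKM in ZIP10-positive cells, against 14.6 RPKM in ZIP10-negative cells, and the peroxisomal thioesterase gene Acot8 at 14.8 RPKM in ZIP10-positive cells, against 3.11 RPKM in ZIP10-negative cells. These 4 were 2-fold higher relative to the median gene, and none of them against genes of similar length. On the lower side, Acadvl, of the oxidation of very long chains, stood at 40.1 RPKM in ZIP10-positive cells, against 46.9 RPKM in ZIP10-negative cells. Srebf1, which encodes the SREBP factor that activates Fasn and Acaca, was named after its values were seen, and stood at 21.7 RPKM in ZIP10-positive cells, against 18.9 RPKM in ZIP10-negative cells, a log2 ratio of -0.74 that was 0.19 as deposited.

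Markers of other cell types differed between the libraries as well. Of 12 macrophage markers 11 reached 1 RPKM and 9 (81.8%, against 14.7% of all genes compared) were at least 2-fold higher relative to the median gene. Lyz2, Aif1, C1qa, C1qb, C1qc and Fcgr1 were listed at 0 in ZIP10-negative cells, as was Mrc1. Of 8 sebaceous gland markers outside the members 7 reached 1 RPKM. Of these 1, Mgst1, was 2-fold higher (14.3%, against 14.7% of all genes compared). Another 1, Prdm1, was 2-fold lower (14.3%, against 11.4%). The 8 summed to 588 RPKM in ZIP10-positive cells, against 191 RPKM in ZIP10-negative cells. Keratinocyte markers summed to 2745 RPKM in ZIP10-positive cells, against 904 RPKM in ZIP10-negative cells. Of these 9 markers 3 were higher (33.3%, against 14.7% of all genes compared) and 1 lower (11.1%, against 11.4%). Against genes of similar length neither Mgst1, at 0.61, nor Prdm1, at -0.78, was past 2-fold, and Soat1 was the sebaceous marker past it, at 1.05. On that scale 1 of 9 keratinocyte markers was higher and 1 lower (9.52% and 11.9% of genes with a length were).

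Endothelial markers were low, with a sum of 23.5 RPKM in ZIP10-positive cells, against 13.3 RPKM in ZIP10-negative cells, and Emcn listed at 0 in both. Of the 12, 6 reached 1 RPKM and 1, Gpihbp1, was higher (16.7%, against 14.7% of all genes compared). Fibroblast and fat precursor markers summed to 409.7 RPKM in ZIP10-positive cells, against 363 RPKM in ZIP10-negative cells. Of these 8, 7 reached 1 RPKM, with 1 higher (14.3%, against 14.7% of all genes compared) and 2 lower (28.6%, against 11.4%). Against genes of similar length 9 macrophage, 2 endothelial and 1 fibroblast marker were higher (9.52% of genes with a length were). Of these lists 1 fibroblast marker was lower (11.9%). Both endothelial markers, Tie1 and Gpihbp1, were listed at 0 in ZIP10-negative cells.

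**Figure D4:**
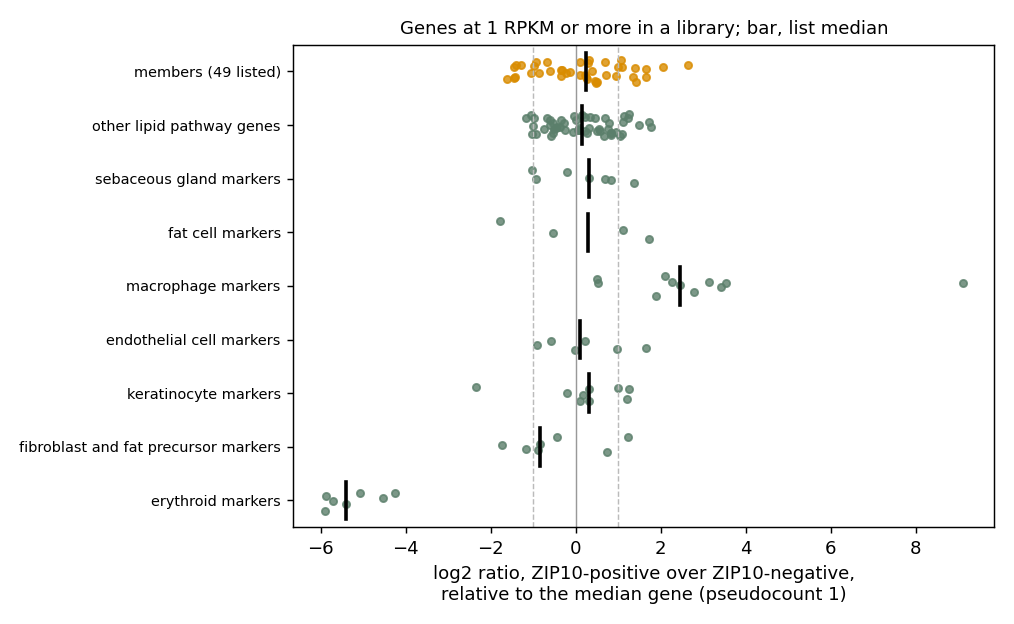
Log2 ratios of ZIP10-positive over ZIP10-negative cells relative to the median gene for the 41 members at 1 RPKM or more and for genes at that level in the other lists, with 1 point per gene. Bars are list medians, at 0.25 for the members, 0.15 for other lipid pathway genes, 2.46 for macrophage markers and -5.40 for erythroid markers. Genes listed at 0 in 1 library, such as Lyz2 at the far right, have values set by the pseudocount.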

How the data were processed

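The authors deposited RPKM values, 1 per gene symbol and library. The submitters' processing notes name TopHat, Cufflinks, cutadapt and build mm9 without their roles or order. Versions, annotation and strand setting were not given in the sources used here. The reference used here is GENCODE M21 on GRCm38, another build, so it served for names, transcript lengths and shared 50-base words only. Genes that reached 1 RPKM in either library were compared as log2 of (RPKM + 1), after the median log2 ratio of 9620 genes at 1 RPKM or more in both libraries had been divided between the libraries.

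Of 1389 genes at 1 RPKM or less, 64.1% had ratios of whole numbers up to 20 times 0.975, which gave the depth ratio of 1.03. Absolute depth came from 443 genes with 1 annotated transcript, of which 24.8% shared the most frequent value, with an assumed length offset of 199 bases. Whole read numbers were recovered for 16 of 39 members, those whose smallest pair had a chance of under 0.05. They were multiplied up to the largest multiple below the estimated reads. The others have rough numbers from depth and length, and their intervals are approximate. Reads carry no molecular identifiers.

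The members, classes and lists were chosen with earlier results of these data known. All members are named. Of the other pathway genes those at 10 RPKM or more and 2-fold from the median gene are named, except 1 that is not reported here. Python 3.11.15, pandas 2.3.3, numpy 2.4.6, scipy 1.17.1 and matplotlib 3.10.9 were used, and the calculations were tested on simulated data.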

Additional observations from a re-analysis of the deposited data

How the results depend on the processing

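The 9 higher and 7 lower members became 23 and 1 as deposited, where 44.1% and 3.55% of all genes were past 2-fold, 5 and 11 without globin genes and Rn45s, where the shares were 8.99% and 19.2%, and 5 and 2 with a pseudocount of 5, where they were 5.61% and 3.01%. The counts were 5 and 5 with 1 RPKM or more in both libraries (9.98% and 9.99%) and 13 and 12 at a 1.5-fold line (28.6% and 22.2%). As deposited, the median over all members was 1.05, against 0.87 for all genes compared. Class medians were then -0.38 for fatty acid synthesis, 1.05 for desaturases, 0.80 for elongases and 1.19 for acyl-CoA synthetases and thioesterases. They were 1.32 for triglyceride synthesis, 2.05 for uptake and binding and 2.14 for the receptors. Those for wax synthesis and for droplet coats and lipases, at -0.24 and -0.055 relative to the median gene, were 0.52 and 0.70. Without globin genes and Rn45s the medians were -0.29 for desaturases, -0.077 for acyl-CoA synthetases and thioesterases (0.30 relative to the median gene) and 1.17 for the receptors, and a pseudocount of 5 gave -0.75 for fatty acid synthesis. The receptor median, of 2 genes, was 3.01 with a pseudocount of 0.1, 0.64 with one of 5, and 0.27 with Pparg left out, either for its listed 0 or for lying under 1 RPKM in 1 library. The scaling sets the zero point, at a log2 ratio of 0.98 for the median gene, 1.29 with the 50 most abundant genes left out and 1.39 with globin genes and Rn45s left out; of 41 members 7 turned above 0 as deposited and 6 below 0 under each of the other 2 scalings. Depth limits the members listed at 0 in a library and Elovl3, Lipe and Lpin1, which rest on under 5 reads in 1 library. No paired analysis was possible because each group has 1 library, so no replicate could be left out.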
